A study of Rattus norvegicus with 2 samples.

Results

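The mitochondrial ribosomal protein genes were examined in rat neural stem cells exposed to ZD7288, a blocker of HCN channels (hyperpolarisation-activated cation channels), or to its vehicle. Members were the genes whose symbol begins with Mrpl or Mrps followed by a digit. This gave 79 of the 25399 listed genes, of which 49 were named for the large subunit and 30 for the small subunit. The symbols of 3 of them, mrpl9, mrpl11 and mrpl24, are written all in lower case in the deposited list and were counted as members. The cells were cortical neural stem cells taken from Sprague-Dawley rat embryos at E14.5 and kept in culture with FGF2, a growth factor that keeps them dividing. The ZD7288 culture received 30 µM of the compound in 0.2% DMSO and the vehicle culture received 0.2% DMSO alone. Both were kept for 48 h, with the medium renewed at 24 h. Each condition was a single 10x Chromium 3′ library, so every difference given here is between 1 library and 1 library, with no replicate and no test. The intervals are exact 95% intervals that cover counting error only.

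Mitochondrial ribosomes translate the few proteins encoded in mitochondrial DNA, all of them subunits of the respiratory chain and ATP synthase. Their RNA comes from the mitochondrial genome, whereas every one of their proteins is encoded in the nucleus, made in the cytosol and imported. The small subunit reads the messenger RNA, the large subunit joins the amino acids, and many of the proteins have no counterpart in bacterial ribosomes. Neural stem cells are commonly described as relying more on glycolysis than neurons do, with mitochondrial respiration increasing as they differentiate.

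After filtering, 3135 of 3849 ZD7288 barcodes and 732 of 842 vehicle barcodes were kept as cells. The kept cells held 73681950 UMIs (unique molecular identifiers, each standing for 1 captured RNA molecule) in the ZD7288 library and 15611454 in the vehicle library. The median cell held 23001 UMIs in the ZD7288 library and 17119 in the vehicle library. Mitochondrially encoded RNA made up 4.70% of the median ZD7288 cell and 5.84% of the median vehicle cell. Of the kept barcode sequences, 3 occurred in both libraries. Levels are given as CPM, UMIs scaled to a library total of 1000000. The neural stem cell marker Nes had 134 CPM in ZD7288 cells and 121 CPM in vehicle cells, and Sox2 had 247 CPM with ZD7288 and 230.0 CPM with vehicle. The marker list of neural stem cells was mixed, with Msi1 and Slc1a3 higher, Hes1, Sox9 and Fabp7 lower, and the other 4 of 9 measured neither, and a ratio of 0.993 for the sum. Markers of oligodendrocyte precursors summed to 1234 CPM in ZD7288 cells and 2269.9 CPM in vehicle cells, and all 3 that were measured were lower. Those of pericytes and fibroblasts summed to 8.10 CPM with ZD7288 and 0.128 CPM with vehicle, with 7 of 8 at 0 in vehicle cells. Those of neurons summed to 187 CPM with ZD7288 and 172 CPM with vehicle, and of 3 measured 2 were higher and 1 lower. Only 2 of the 3 had 10 CPM in both libraries, and of these 1 was higher and 1 lower. Those of astrocytes summed to 46.5 CPM with ZD7288 and 33.6 CPM with vehicle, and the 1 that was measured was higher. Microglial, endothelial and red blood cell markers each summed to under 1 CPM in either library. The part of these cell types in the differences below was not tested.

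As a group, the mitochondrial ribosomal protein genes held nearly the same share of the transcriptome with and without ZD7288. Of the 79 members, 72 reached 10 CPM in at least 1 library, and these 72 reached it in both. They summed to 8792 CPM in ZD7288 cells and 8686 CPM in vehicle cells, a ratio of 1.01 (95% counting interval 1.006 to 1.018), which falls below 1 when libraries are scaled on the median gene. A gene is called higher here where its CPM in ZD7288 cells was at least 25% above that in vehicle cells, and lower where it was at least 20% below. By this limit 16 members were higher, 7 were lower and 49 were neither. Higher members were thus 22.2% of those measured, against 26.0% of all 6337 measured genes, and lower members 9.72%, against 16.0% of all measured genes. Both shares lay below the background, so the counts show no excess of changed members. With the libraries scaled so that the median measured gene had a ratio of 1, 8 members were higher and 10 lower, against 20.6% and 20.1% of all genes. The median log2 ratio over the members was 0.031, against 0.068 over all measured genes. Individual members spread around that centre, with a middle range of -0.075 to 0.27 and outer values of -0.74 and 0.72, against a middle range of -0.19 to 0.33 over all genes. The members were also more abundant than the typical gene, with a median of 107 CPM in vehicle cells against 35.4 CPM, and the counting error of a ratio is smaller at such levels.

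**Figure D1:**
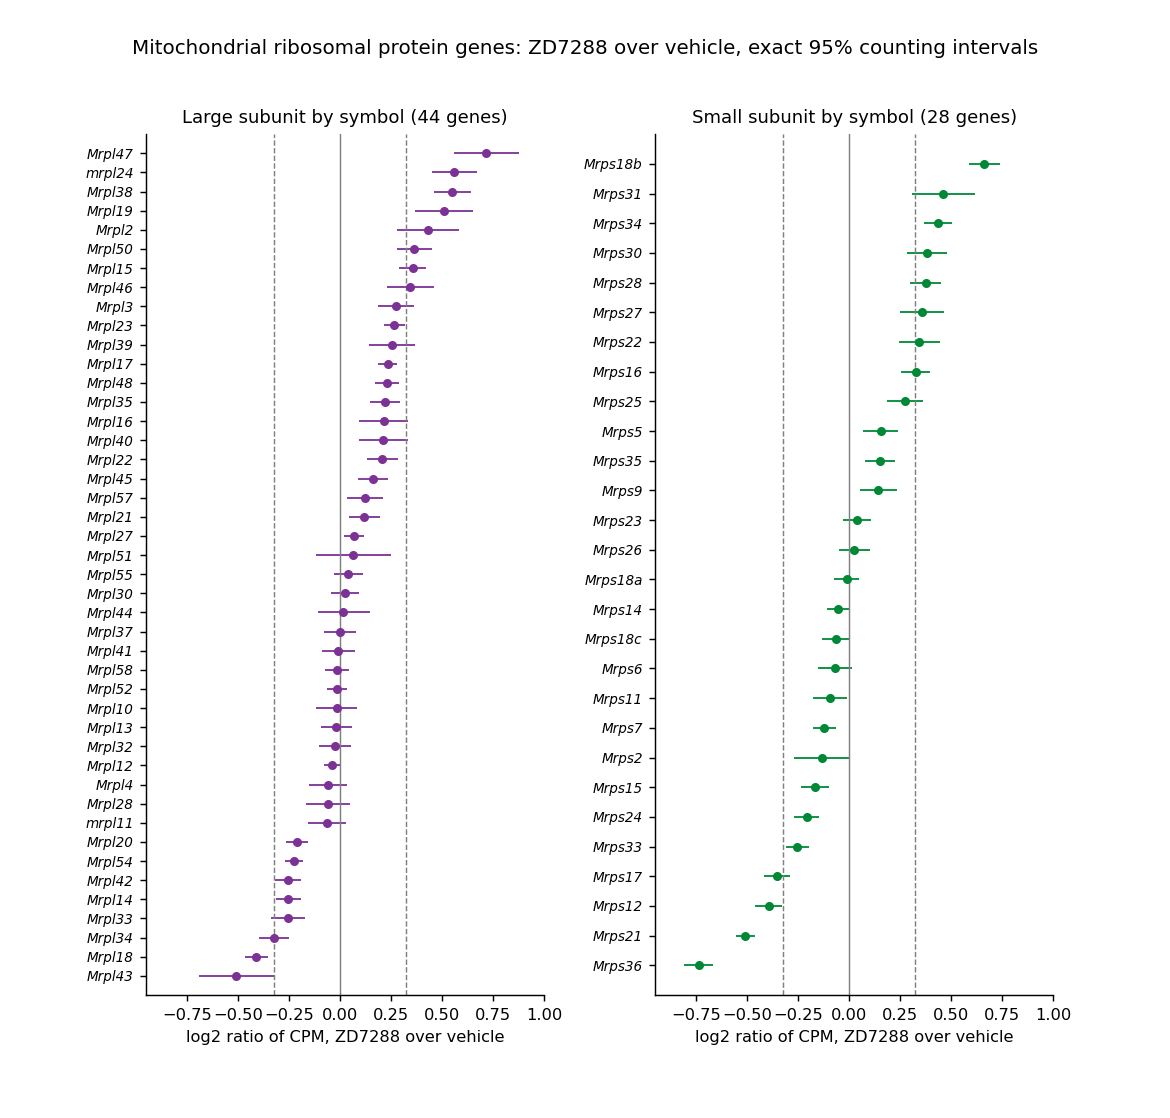
Log2 ratio of CPM, ZD7288 over vehicle, for the 72 measured members, with large subunit and small subunit genes in separate panels; horizontal lines are exact 95% counting intervals. Values run from -0.74 for Mrps36 to 0.72 for Mrpl47, and 49 members lie between the limits for higher and lower.

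Large and small subunit genes were also close to each other. The 44 measured large subunit genes summed to 5432 CPM in ZD7288 cells and 5265 CPM in vehicle cells. Their ratio was 1.03 (1.02 to 1.04), or 0.045 on the log2 scale, and it changed sign to -0.023 when libraries were scaled on the median gene. The 28 measured small subunit genes summed to 3360.1 CPM in ZD7288 cells and 3421 CPM in vehicle cells, a ratio of 0.982 (0.973 to 0.991). Summed large subunit UMIs were therefore 1.62 times the small subunit UMIs in ZD7288 cells and 1.54 times in vehicle cells. The log2 ratio of the large subunit exceeded that of the small subunit by 0.071, a difference that scaling cannot alter. Without replicate libraries there is no spread between cultures to set it against. Among large subunit genes 8 were higher and 3 lower, and among small subunit genes 8 were higher and 4 lower. The median log2 ratios of the subunits were 0.051 and 0.0064.

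Symbols do not always match the subunit in which a protein is found. Structures place the products of Mrps30 and Mrps18a in the large subunit, and the product of Mrps36 belongs to the 2-oxoglutarate dehydrogenase complex of the citric acid cycle rather than to the ribosome. RefSeq now lists Mrps36 as Kgd4. Mrps36 had the lowest ratio of all members. With the genes placed by structure, the ratio was 1.03 for 46 large subunit genes and 0.993 (0.983 to 1.003) for 25 small subunit genes. With Mrps36 alone left out, the small subunit log2 ratio was -0.0022 and the difference between the subunits was 0.047.

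Most of the abundant members were neither higher nor lower. Mrpl12, which forms the stalk that recruits translation factors and also binds the mitochondrial RNA polymerase in human cells, had 352 CPM in ZD7288 cells and 361 CPM in vehicle cells. Mrpl54 had 277 CPM in ZD7288 cells and 324 CPM in vehicle cells. Mrpl17, at the exit tunnel, had 327 CPM in ZD7288 cells and 278 CPM in vehicle cells. The next most abundant large subunit genes were close in both libraries as well. Mrpl52 had 264 CPM in ZD7288 cells and 267 CPM in vehicle cells, and Mrpl27 had 272 CPM in ZD7288 cells and 259 CPM in vehicle cells. Among small subunit genes Mrps21, the counterpart of bacterial S21, was the most abundant in both libraries and also one of the lower members, with 219.7 CPM in ZD7288 cells and 313 CPM in vehicle cells. The next in order were neither higher nor lower. Mrps33 had 178 CPM in ZD7288 cells and 212 CPM in vehicle cells. Mrps14 had 194 CPM in ZD7288 cells and 201 CPM in vehicle cells. Mrps7, of the head of the small subunit, had 183 CPM in ZD7288 cells and 199.7 CPM in vehicle cells, and Mrps24 had 144 CPM with ZD7288 and 166 CPM with vehicle. Since 3′ UMI counting records each captured molecule once, these levels were not divided by transcript length.

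**Figure D2:**
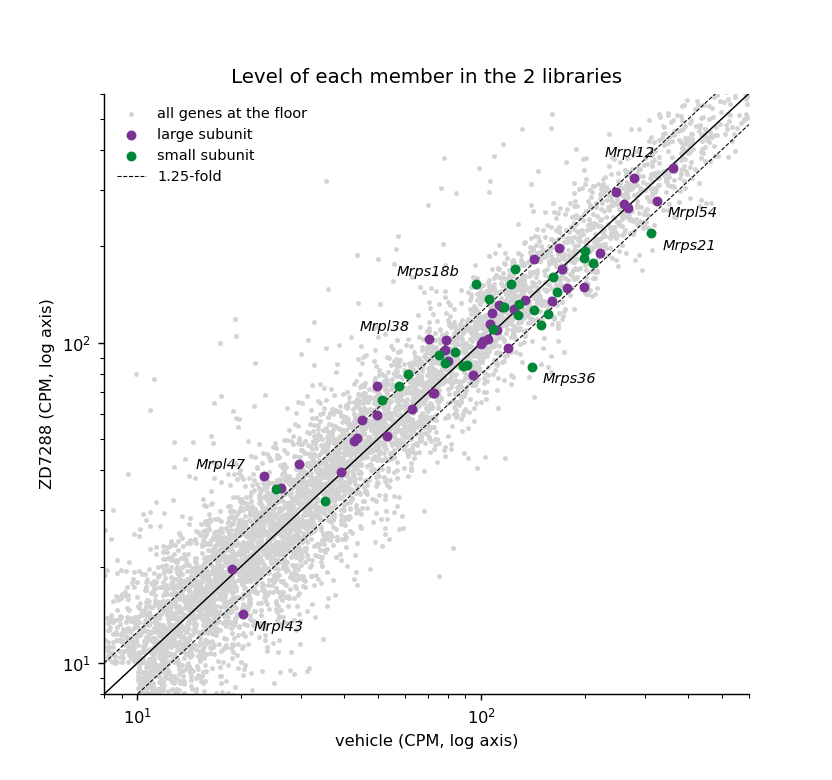
Level of each measured member in ZD7288 cells (vertical, CPM, log axis) against vehicle cells (horizontal, CPM, log axis), with large and small subunit genes marked apart. The points follow the line of equality over a range from Mrpl43, at 14.2 CPM with ZD7288 and 20.2 CPM with vehicle, to Mrpl12, at 352 CPM with ZD7288 and 361 CPM with vehicle.

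At the other end, 7 members did not reach 10 CPM. mrpl9 had 4.30 CPM in ZD7288 cells and 2.43 CPM in vehicle cells, Mrpl1 had 2.28 CPM with ZD7288 and 1.47 CPM with vehicle, Mrpl49 had 1.71 CPM with ZD7288 and 1.22 CPM with vehicle, and Mrps10 had 1.30 CPM with ZD7288 and 0.897 CPM with vehicle. Mrpl36, Mrpl53 and Mrps21l had no UMI in either library, with upper 95% counting limits of 0.0501 CPM in ZD7288 cells and 0.236 CPM in vehicle cells. These limits cover counting error only and do not bound expression if reads were assigned elsewhere or left out. RefSeq places Mrpl36 over Ndufs6, and Mrps21l has a name like that of Mrps21. How reads of these genes were assigned was not tested. There was a gap around 10 CPM itself. Ordered by the larger of their levels in the libraries, the lowest members above it were Mrpl51, with 19.7 CPM in ZD7288 cells and 18.8 CPM in vehicle cells, Mrpl43, described below, and Mrps31, at 34.9 CPM with ZD7288 and 25.3 CPM with vehicle.

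The members that were higher in ZD7288 cells came from several places in the ribosome. Mrpl47, the counterpart of bacterial L29 beside the exit tunnel, had 38.4 CPM in ZD7288 cells and 23.4 CPM in vehicle cells, a ratio of 1.64 (1.47 to 1.84). Mrps18b, 1 of 3 mammalian relatives of bacterial S18, had 153 CPM in ZD7288 cells and 96.7 CPM in vehicle cells, a ratio of 1.58 (1.501 to 1.673). Only these 2 members passed a fold of 1.5 upward, as did 10.1% of all measured genes. mrpl24, also at the exit tunnel, had 73.3 CPM in ZD7288 cells and 49.7 CPM in vehicle cells, a ratio of 1.47 (1.37 to 1.59). Mrpl38, a mitochondria-specific protein of the central protuberance (a knob on the large subunit that faces the small one), had 103 CPM with ZD7288 and 70.3 CPM with vehicle, a ratio of 1.47 (1.38 to 1.56). Mrpl19, a relative of bacterial L19 at the subunit interface, had 42.0 CPM with ZD7288 and 29.5 CPM with vehicle, a ratio of 1.42 (1.29 to 1.57). In the small subunit, the mitochondria-specific genes Mrps31 and Mrps34 had ratios of 1.38 (1.24 to 1.54) and 1.35 (1.29 to 1.42). Mrps34 is needed for a stable small subunit in mice and humans, and it had 169.9 CPM in ZD7288 cells against 126 CPM in vehicle cells. Mrpl2, whose bacterial counterpart lies near the peptidyl transferase centre, had 35.2 CPM with ZD7288 and 26.1 CPM with vehicle, a ratio of 1.35. The remaining 8 higher members, Mrps30, Mrps28, Mrpl50, Mrps27, Mrpl15, Mrps22, Mrpl46 and Mrps16, had ratios of at most 1.30.

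Of the 7 lower members, 5 have bacterial counterparts, as do 44 of all 72 measured members. Mrps36, the dehydrogenase subunit, had 84.1 CPM in ZD7288 cells and 140.2 CPM in vehicle cells, a ratio of 0.600 (0.571 to 0.630), and no other member passed a fold of 1.5 downward, as did 6.60% of all measured genes. Mrpl43, a mitochondria-specific large subunit gene, had 14.2 CPM in ZD7288 cells and 20.2 CPM in vehicle cells, a ratio of 0.702 (0.618 to 0.799). Mrps21 had a ratio of 0.703 (0.681 to 0.726). These were followed by Mrpl18, of the central protuberance, with 149 CPM in ZD7288 cells and 198 CPM in vehicle cells and a ratio of 0.753 (0.723 to 0.784). Mrps12, the counterpart of bacterial S12 at the decoding centre, had 114 CPM with ZD7288 and 149.6 CPM with vehicle, a ratio of 0.761. Mrps17 had 123 CPM with ZD7288 and 157 CPM with vehicle, a ratio of 0.783. Mrpl34 had 96.0 CPM with ZD7288 and 120.0 CPM with vehicle, a ratio of 0.800 (0.760 to 0.842) and the last to reach the limit. Mrpl33, at 0.838, was the next in order and did not reach it. Across 7 other ways of filtering, weighting and scaling the cells, 7 of the 16 higher and 5 of the 7 lower members kept their call in every one. All 23 kept their side of 1. These ways reuse the UMIs by which the members were called, so keeping a side of 1 was nearly given in advance. It is no support for the differences.

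Some of these levels are uncertain because of neighbouring or copied genes. RefSeq lists pseudogenes or like-named copies for 9 of the 23 higher or lower members, Mrpl47, Mrps18b, Mrpl2, Mrpl15, Mrpl46, Mrps16, Mrps17, Mrps21 and Mrps36. It also places 6 of the 23 over another gene, Mrpl47, mrpl24, Mrps31, Mrps28, Mrps12 and Mrpl43. Of all 72 measured members, 22 have such copies and 18 overlap another gene, so neither is particular to the higher or lower members. Mrpl43, for example, overlaps Twnk, which encodes the mitochondrial DNA helicase. How reads shared by such genes were assigned, and whether strand was used, is not given in the sources used here.

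Structural classes differed by small amounts. The 44 measured members with bacterial counterparts included 8 higher and 5 lower. Their median log2 ratio was -0.016 and their summed ratio 1.00. The 27 mitochondria-specific members included 8 higher and 1 lower. Their median was 0.15 and their summed ratio 1.05 (1.04 to 1.07). In the small subunit, 4 of 9 mitochondria-specific genes were higher and 0 lower, and the median was 0.27. The 16 with bacterial counterparts included 3 higher and 3 lower, and their median was -0.082. Of the 9 mitochondria-specific genes, Mrps33 was the only one with a ratio below 1, and Mrps23 and Mrps26 join it when libraries are scaled on the median gene. These classes were named with the ratios already known. The counts stand beside 26.0% higher and 16.0% lower over all genes, and the medians beside 0.068. With 29.6% higher, the mitochondria-specific members were near that background.

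Within the large subunit, the 3 stalk proteins had ratios close to 1. These were 0.956 for mrpl11, 0.974 for Mrpl12 and 0.989 for Mrpl10. All 8 proteins around the polypeptide exit tunnel, through which the nascent chain leaves, had ratios above 1, 2 of them higher, though Mrpl44, at 1.01, falls below 1 when libraries are scaled on the median gene. Of all measured genes, 3632 of 6337 had ratios above 1, and 2 of 8 is close to the 26.0% of all genes that were higher. The median log2 ratio was 0.24, with summed levels of 1087 CPM in ZD7288 cells against 909 CPM in vehicle cells. Of these, Mrpl45, which in human mitochondria helps to dock the ribosome at the inner membrane, had 129 CPM in ZD7288 cells and 115 CPM in vehicle cells and was not among the higher members. The central protuberance split, with Mrpl38, Mrps30 and Mrpl46 higher, Mrpl18 lower and the other 5 of its 9 members neither. Its summed level was 1206 CPM in ZD7288 cells and 1141 CPM in vehicle cells. The S18 relatives split too. Mrps18b stood at 1.58, whereas Mrps18a, with 160.2 CPM in ZD7288 cells and 162 CPM in vehicle cells, and Mrps18c, at 123 CPM with ZD7288 and 128 CPM with vehicle, had ratios of 0.992 and 0.956.

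Promoters are shown for the members at the ends of this order. RefSeq windows on the rat build GRCr8, covering 250 bases before and 50 after the annotated start, were at hand for 58 of the 72 measured members. They were searched on both strands for motifs of factors tied to nuclear genes of mitochondria or to the stress response. The motifs were NRF1 (GCGCA, any base, then GCGC), ETS as bound by GABPA (CCGGAAG), YY1 (AAGATGGCG), the ATF4 composite element (TGATGNAA), the E-box bound by MYC and relatives (CACGTG) and the cyclic AMP response element (TGACGTCA). Below, capitals mark matches on either strand. Mrps18b and Mrpl47 had the largest ratios, Mrps36 had the smallest, and Mrpl46 is shown because it shares its promoter with a second member.
Mrps18b, chr20:2842756-2843055 (+): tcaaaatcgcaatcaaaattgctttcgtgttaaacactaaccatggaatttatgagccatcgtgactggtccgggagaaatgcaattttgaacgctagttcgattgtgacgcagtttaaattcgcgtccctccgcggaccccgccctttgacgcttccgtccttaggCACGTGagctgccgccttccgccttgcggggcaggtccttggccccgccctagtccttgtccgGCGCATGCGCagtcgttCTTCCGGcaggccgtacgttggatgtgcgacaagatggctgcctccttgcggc
Mrpl47, chr2:117447312-117447611 (-): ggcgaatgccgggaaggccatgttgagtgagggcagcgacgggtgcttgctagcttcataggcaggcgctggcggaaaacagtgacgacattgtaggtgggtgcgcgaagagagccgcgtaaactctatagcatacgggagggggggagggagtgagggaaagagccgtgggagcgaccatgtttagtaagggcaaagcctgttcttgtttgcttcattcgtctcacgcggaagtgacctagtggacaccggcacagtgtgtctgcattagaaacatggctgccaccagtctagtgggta
Mrpl46, chr1:142116981-142117280 (-): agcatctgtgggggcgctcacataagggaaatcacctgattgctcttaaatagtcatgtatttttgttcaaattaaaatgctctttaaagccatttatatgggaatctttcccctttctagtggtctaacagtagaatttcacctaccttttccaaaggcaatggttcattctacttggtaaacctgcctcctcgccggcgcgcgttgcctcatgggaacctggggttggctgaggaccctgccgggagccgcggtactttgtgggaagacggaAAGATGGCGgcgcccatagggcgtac
Mrps36, chr2:33612348-33612647 (-): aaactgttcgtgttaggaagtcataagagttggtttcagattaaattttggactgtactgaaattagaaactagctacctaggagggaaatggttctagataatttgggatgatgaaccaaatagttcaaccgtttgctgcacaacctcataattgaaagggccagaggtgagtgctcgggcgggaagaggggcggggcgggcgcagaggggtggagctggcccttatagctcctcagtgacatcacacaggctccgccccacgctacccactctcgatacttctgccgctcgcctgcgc
The Mrps18b window holds an E-box, an NRF1 and an ETS match, in that order from the 5′ end, which begin at bases 168, 231 and 248 of the window. The Mrpl46 window holds a YY1 match at base 275. The windows of Mrpl47 and Mrps36 hold none of the 6 motifs in these letters.

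Over the 58 member promoters, ETS letters occurred in 18 (31.0%), against 10.7% of 21851 promoters of protein-coding genes. NRF1 letters occurred in 9 (15.5%), against 5.67%, and YY1 letters in 7 (12.1%), against 2.07%. The other shares were nearer to the background, with the ATF4 composite in 2 (3.45%, against 3.35%), the E-box in 6 (10.3%, against 7.02%) and the cyclic AMP response element in 1 (1.72%, against 2.10%). The median GC content was 55.8%, against 55.0%, and the median number of CpG dinucleotides was 18, against 11. A match is a string of letters and does not show that a factor binds there.

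ETS and NRF1 letters did not sort the members by their ratios. ETS letters were found in 3 of 10 higher members, 1 of 5 lower members and 14 of 43 that were neither. NRF1 letters were found in 1 of 10 higher, 0 of 5 lower and 8 of 43 other members. YY1 letters were found in 4 of 10 higher, 0 of 5 lower and 3 of 43 other members, a split that was noticed after the values were seen and rests on 7 genes. All 7 matches run in the direction of the gene and begin 1 to 30 bases after the annotated start. They are printed with 10 bases on each side, the 4 higher members first, because all lie just after the start of the gene.
Mrps30, chr2:52195868-52195896 (-): gcggaggacaAAGATGGCGgctgccaggt
Mrpl50, chr5:68668043-68668071 (-): gagcttgtcgAAGATGGCGgcgctgtgtg
Mrps27, chr2:32474223-32474251 (+): ggtacgctccAAGATGGCGgcccccatgg
Mrpl46, chr1:142116988-142117016 (-): ggaagacggaAAGATGGCGgcgcccatag
Mrpl37, chr5:127074943-127074971 (-): tgcccgggcaAAGATGGCGgcgtccaggt
Mrps18a, chr9:22367362-22367390 (-): gtgtgttcccAAGATGGCGgccctcaggg
Mrpl42, chr7:32028485-32028513 (-): agattgaagcAAGATGGCGagcgcgcggt
The log2 ratios of the 7 genes were 0.38 for Mrps30, 0.37 for Mrpl50, 0.36 for Mrps27, 0.34 for Mrpl46, -0.00017 for Mrpl37, -0.012 for Mrps18a and -0.25 for Mrpl42.

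Members that share a promoter region with a gene on the opposite strand did not always move with that partner. Such a partner was found for 13 of the 58 promoters, and in 8 the partner was itself measured. Mrpl46 and Mrps11 share 267 bases, and Mrpl46 had 57.2 CPM in ZD7288 cells against 45.1 CPM in vehicle cells, while Mrps11 had 85.2 CPM with ZD7288 against 91.0 CPM with vehicle. Mrpl47 shares 257 bases with Ndufb5, a subunit of respiratory complex I, which had 448 CPM in ZD7288 cells and 446 CPM in vehicle cells. Mrpl18 shares 76 bases with Tcp1, a subunit of the cytosolic chaperonin, with 476 CPM in ZD7288 cells and 392.4 CPM in vehicle cells, a log2 ratio of 0.28 against -0.41 for Mrpl18. Mrpl32 shares 291 bases with the proteasome gene Psma2, with 321 CPM in ZD7288 cells and 249 CPM in vehicle cells, while Mrpl32 itself had 103 CPM with ZD7288 and 104 CPM with vehicle.

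Other nuclear genes of mitochondrial gene expression were set beside the members. Of 5 mitochondrial ribosomal proteins with other symbols, Ptcd3 was higher, with 58.7 CPM in ZD7288 cells and 43.0 CPM in vehicle cells, and 0 were lower. Of 21 measured genes for assembly of the ribosome and modification of its RNA, 9 were higher and 1 lower, and the median log2 ratio was 0.28. Fastkd2, an RNA-binding protein of mitochondrial RNA granules, was one of the higher ones, with 16.5 CPM in ZD7288 cells and 9.03 CPM in vehicle cells. Mtg1, a GTPase of large subunit assembly, had 23.5 CPM with ZD7288 and 15.4 CPM with vehicle, and Ngrn had 25.7 CPM with ZD7288 and 16.8 CPM with vehicle. The lower one was Ybey, an RNase, with 6.49 CPM in ZD7288 cells and 10.2 CPM in vehicle cells. These counts stand beside 26.0% higher and 16.0% lower over all genes. Unlike the members, some genes of the lists reached 10 CPM in 1 library only, that in which they were higher, and this alone favours a difference. The counts were therefore repeated over genes with 10 CPM in both libraries, a setting chosen after the data were seen, in which 24.9% of all genes were higher and 13.2% lower. Of 16 such assembly genes, 6 were higher and 0 lower. Fastkd2 and Ybey were not among them.

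Mitochondrial aminoacyl-tRNA synthetases, which charge the tRNAs that the ribosome uses, are mostly expressed at low levels, and 9 of the 17 listed were measured. Of these 9, 6 were higher and 0 lower, beside 26.0% higher and 16.0% lower of all measured genes. One of the 9 passed 10 CPM in ZD7288 cells only. Of the 8 that did in both libraries 5 were higher and 0 lower, beside 24.9% and 13.2% of all genes. The median log2 ratio was 0.47, and the sum was 177 CPM in ZD7288 cells against 127 CPM in vehicle cells. Fars2 had 36.1 CPM in ZD7288 cells and 21.5 CPM in vehicle cells, Rars2 had 19.1 CPM with ZD7288 and 11.98 CPM with vehicle, and Tars2 had 24.8 CPM with ZD7288 and 16.6 CPM with vehicle. No count is given for the other 8 synthetase genes, which did not reach 10 CPM.

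Translation factors were mixed. Of 16 measured, 4 were higher and 1 lower, and the median was 0.21. The higher ones were 25% of those measured, near the 26.0% of all measured genes, of which 16.0% were lower. Of 14 with 10 CPM in both libraries, 4 were higher and 0 lower. Qrsl1, a subunit of the enzyme that makes mitochondrial glutaminyl-tRNA, had 17.3 CPM in ZD7288 cells and 10.6 CPM in vehicle cells. Lrpprc, which stabilises mitochondrial messenger RNAs, had 51.1 CPM with ZD7288 and 32.7 CPM with vehicle, and the elongation factor gene Tsfm had 19.2 CPM with ZD7288 and 13.0 CPM with vehicle. The release factor gene Mtrf1l was lower, with 9.61 CPM in ZD7288 cells and 14.3 CPM in vehicle cells. Mitochondrial chaperones and proteases included 5 higher and 0 lower of 11, beside the same 26.0% and 16.0% over all measured genes. Among the higher ones was the protease gene Lonp1, with 102 CPM in ZD7288 cells and 57.0 CPM in vehicle cells. Another was the chaperonin gene Hspd1, at 834 CPM with ZD7288 and 545 CPM with vehicle.

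Genes for mitochondrial DNA upkeep and transcription included 2 higher and 0 lower of 6, and their median was 0.22. Over all measured genes 26.0% were higher and 16.0% lower, so 2 higher of 6 is close to that background. Tefm, the transcription elongation factor, had 14.1 CPM in ZD7288 cells and 10.6 CPM in vehicle cells, and Mterf1 had 30.6 CPM with ZD7288 and 24.5 CPM with vehicle. Of 7 measured regulators of mitochondrial biogenesis, 4 were higher and 1 lower. Of the 6 with 10 CPM in both libraries, 3 were higher and 1 lower. Yy1 had 12.2 CPM in ZD7288 cells and 6.53 CPM in vehicle cells and so entered only through ZD7288 cells. Myc had 159 CPM with ZD7288 and 109 CPM with vehicle, Esrra had 51.7 CPM with ZD7288 and 40.0 CPM with vehicle, and the coactivator gene Pprc1 was lower, at 12.8 CPM with ZD7288 and 16.1 CPM with vehicle.

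The messenger RNAs that mitochondrial ribosomes translate were lower in sum. Of the 13 mitochondrially encoded protein genes, 6 were lower and 2 higher (6 and 1 of the 12 with 10 CPM in both libraries). Over all measured genes 16.0% were lower and 26.0% higher. The sum of the 13 was 48634 CPM in ZD7288 cells and 60306 CPM in vehicle cells. Mt-cyb had 4470 CPM in ZD7288 cells and 6705 CPM in vehicle cells, Mt-nd3 had 1174 CPM with ZD7288 and 1690 CPM with vehicle, and Mt-co3 had 5965 CPM with ZD7288 and 8539 CPM with vehicle. Mt-nd6, the only one of them on the light strand of mitochondrial DNA, was higher, with 48.4 CPM in ZD7288 cells and 28.3 CPM in vehicle cells. Of 72 measured cytosolic ribosomal protein genes, named by symbols that begin with Rpl or Rps, 0 were higher and 4 lower (0 and 3 of the 71 with 10 CPM in both libraries), and the median was -0.15. For scale, 19 of 20 measured genes of the ATF4 stress response list were higher and 0 lower, and the median was 1.91. Of the 13 with 10 CPM in both libraries, 12 were higher. That list was chosen with its rise in these libraries already known.

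**Figure D3:**
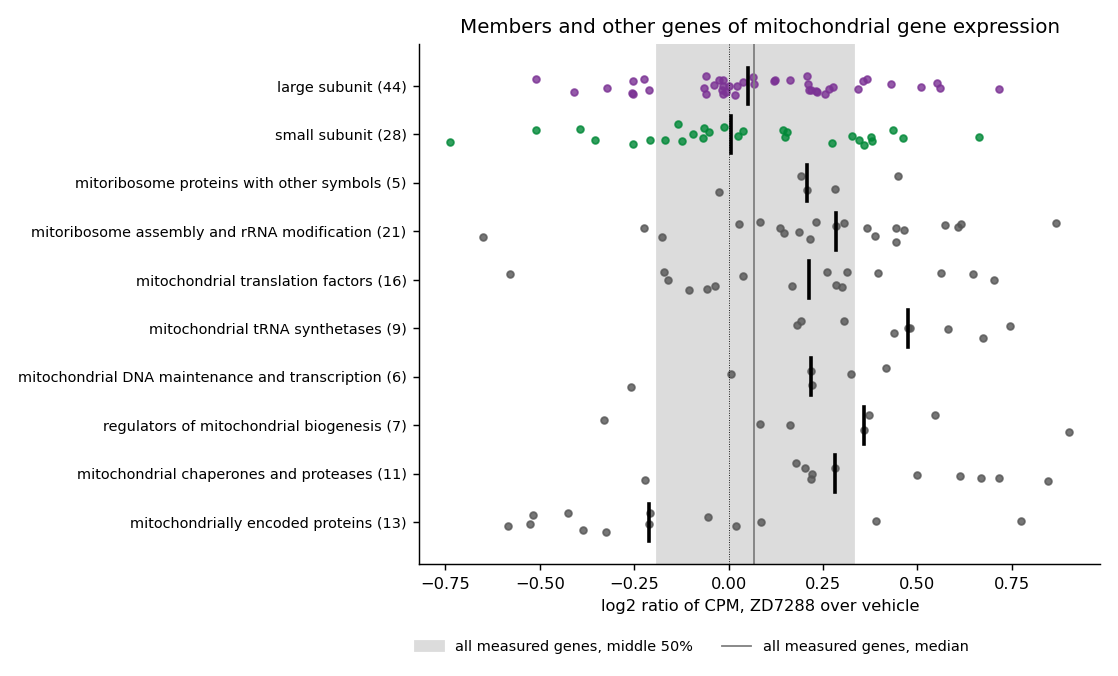
Log2 ratio of CPM, ZD7288 over vehicle, for each measured gene of the member groups and of the other lists; points are genes, heavy marks are medians, and the grey band and line are the middle range and median of all measured genes. The medians lie at 0.051 for large and 0.0064 for small subunit genes, 0.47 for mitochondrial tRNA synthetases and -0.21 for mitochondrially encoded proteins.

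Single cells gave the same picture. Each cell was thinned to 2000 UMIs, which left 2956 ZD7288 cells and 724 vehicle cells, with 179 shallower ZD7288 cells and 8 shallower vehicle cells left out. A ZD7288 cell then held a mean of 17.7 member UMIs (SD 4.34 over cells) and a vehicle cell 17.5 (SD 4.32), a ratio of 1.01 (0.989 to 1.03). These SDs were close to those that Poisson counting alone would give, 4.21 for ZD7288 cells and 4.19 for vehicle cells. With so few member UMIs left per thinned cell, counting error makes up most of the spread. Modest differences between cells could therefore hardly show. The median was 18 UMIs in ZD7288 cells and 17 in vehicle cells, and the values ran from 4 to 35 in ZD7288 cells and from 5 to 29 in vehicle cells. Large subunit UMIs averaged 10.97 in ZD7288 cells and 10.6 in vehicle cells, and small subunit UMIs 6.72 in ZD7288 cells and 6.88 in vehicle cells.

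**Figure D4:**
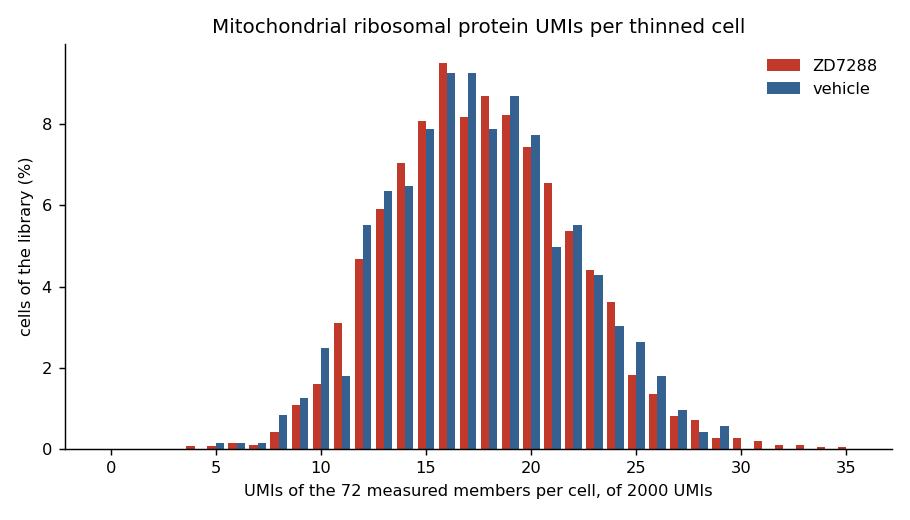
Share of each library's cells (%) by the number of member UMIs among 2000 UMIs per cell, for 2956 ZD7288 and 724 vehicle cells. The 2 distributions largely overlap, with medians of 18 UMIs in ZD7288 cells and 17 in vehicle cells.

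The summed level of the members differed little between ranges of the cell cycle. Cells were ranged by the UMIs of S phase and G2/M genes among their 2000, with cells under 10 such UMIs kept apart. Of the rest, those above the median share of such UMIs from S phase genes, 25.9%, were called S-leaning and the others G2/M-leaning. In ZD7288 cells the members summed to 8654 CPM in the range under 10, 8864 CPM in the S-leaning and 8806 CPM in the G2/M-leaning range. In vehicle cells the same ranges had 8556, 8677 and 8722 CPM. The ranges held 762, 1110 and 1084 ZD7288 cells and 95, 300 and 329 vehicle cells, and 16.3% of ZD7288 cells and 19.6% of vehicle cells had 8 to 12 such UMIs, near the limit. Single members differed more between ranges, and 3 are given here that were chosen after their values were seen. Mrps12, one of the lower members, had 89.1 CPM under 10 and 137 CPM in the G2/M-leaning range of ZD7288 cells, a ratio of 0.648, and 122 CPM against 168 CPM in vehicle cells, a ratio of 0.727. Mrps6 had ratios of 0.693 in ZD7288 cells and 0.752 in vehicle cells between the same ranges, and Mrpl40 had 1.21 in ZD7288 cells and 1.56 in vehicle cells. G2/M-leaning cells made up 36.7% of the thinned ZD7288 cells and 45.4% of the vehicle cells. Within the ranges, Mrps12 had ratios of ZD7288 to vehicle of 0.728 under 10, 0.767 in S-leaning and 0.816 in G2/M-leaning cells, the last of which does not reach the limit for lower. All 16 higher and all 7 lower members lay on the same side of 1 within each of the 3 ranges. The ranges divide cells whose UMIs gave the calls, so this agreement was largely given in advance. A part of the cell cycle in the differences was not tested. Mrpl47 had ratios of 2.07, 1.79 and 1.46 in these ranges, although its vehicle counts were only 30, 137 and 198 UMIs. Mrps18b had 1.84, 1.54 and 1.56, Mrps36 had 0.620, 0.592 and 0.605, and Mrps21 had 0.639, 0.722 and 0.698.

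Member sums also differed little between thinned cells grouped by their ATF4 list UMIs. That list summed to 5029 CPM in ZD7288 cells and 1382 CPM in vehicle cells, so vehicle cells were grouped by few UMIs each. In vehicle cells this split could therefore hardly show whether the members follow the list. With the cells of each library split into 3 equal groups by their ATF4 list UMIs, the members summed to 8759.8, 8841 and 8774 CPM from the lowest to the highest group of ZD7288 cells, and to 8683, 8650.2 and 8725 CPM in vehicle cells.

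In vehicle cells the summed level differed more between ranges of depth and of mitochondrial share than between ranges of the cell cycle. In ZD7288 cells it did not. From the lowest to the highest of 3 equal groups by UMIs per cell, the members summed to 8918, 8809 and 8739.6 CPM in ZD7288 cells and to 9006, 8914 and 8481 CPM in vehicle cells. By mitochondrial share the sums were 8836.6, 8827 and 8722 CPM in ZD7288 cells and 9028, 8815 and 8293 CPM in vehicle cells. The ratio of ZD7288 to vehicle between groups of the same rank therefore differed with the rank. The groups were cut within each library, so those of the same rank held unlike cells. The lowest by mitochondrial share had a median share of 3.54% in ZD7288 cells and 4.68% in vehicle cells, and the highest 5.83% and 7.13%. The ratio was 0.996 for the large and 0.952 for the small subunit in the lowest group by mitochondrial share, and 1.07 and 1.02 in the highest. Over the 12 ranges described here, large subunit UMIs were 1.60 to 1.64 times the small subunit UMIs in ZD7288 cells and 1.51 to 1.58 times in vehicle cells. Without Mrps36 these values were 1.641 to 1.687 in ZD7288 cells and 1.574 to 1.642 in vehicle cells, so that the spans met at their ends. In each of the 12 ranges the ZD7288 value was still above that of the vehicle range of the same name. The ranges divide the same 2 libraries in 4 ways and are not replicates.

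**Figure D5:**
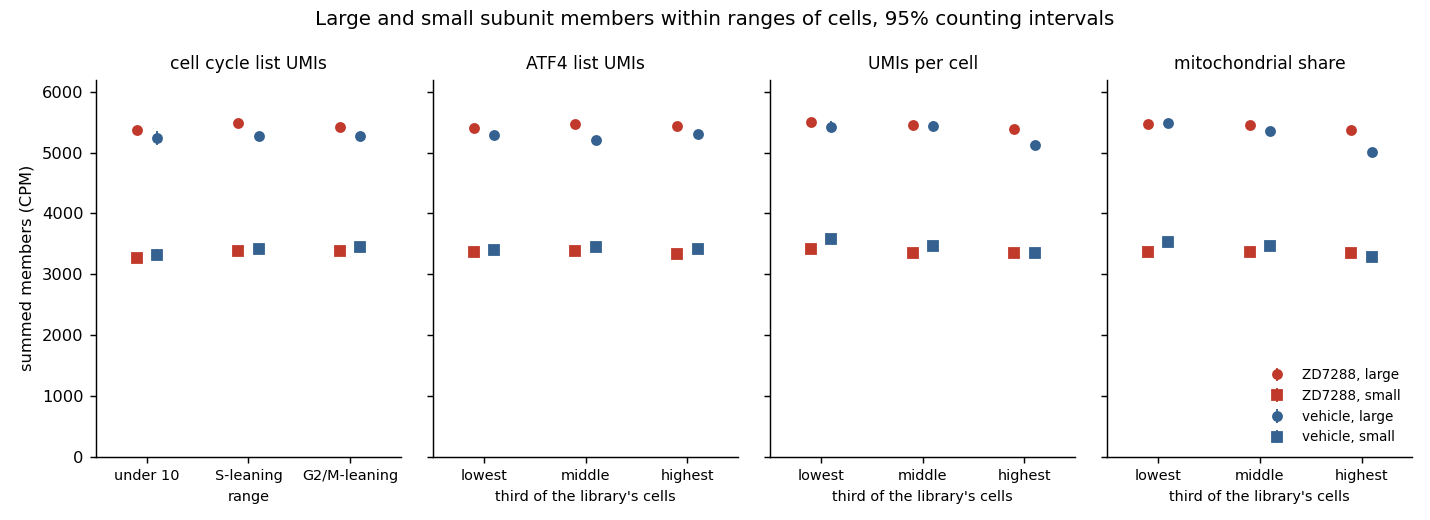
Summed CPM of large and small subunit members within ranges of cells by cell cycle, ATF4 list UMIs, UMIs per cell and mitochondrial share, with ZD7288 left of vehicle and 95% counting intervals. Large subunit sums lie above small subunit sums in every range, by 1.60 to 1.64 times in ZD7288 cells and 1.51 to 1.58 times in vehicle cells with Mrps36 counted among the small subunit genes.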

How the data were processed

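The authors deposited 1 matrix of raw UMI counts for both libraries; it was made with Cell Ranger per the submitters' processing notes, and the software version is 3.0.2 per the file headers. Libraries used the 10x Chromium 3′ kit, version 2, per the labels. The genome build, annotation and rule for calling barcodes were not given in the sources used here. Barcodes ending in 1 and 2 were matched to the control and treatment samples by the number in their titles, and every direction rests on that match. One label spells the compound ZD2788.

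Cells were kept at 1000 or more UMIs, 500 or more genes and at most 10% mitochondrially encoded UMIs. No doublet caller was run; an alternative left out cells above the 95th percentile of UMIs. Counts were summed per library and divided by the library's total (CPM). Genes with at least 10 CPM in either library were measured, and a gene at least 25% above or 20% below vehicle was called higher or lower. Intervals were exact Poisson for levels and exact binomial (Clopper-Pearson) for ratios, and PCR and culture variation are outside them. No test was possible with 1 library in each condition. Total counts were 73681950 UMIs for ZD7288 and 15611454 for vehicle, so 1 CPM stood for 73.7 and 15.6 UMIs.

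Members and lists were chosen with earlier results of these data known. Named members were the 8 largest and 8 smallest ratios, the 5 most abundant of each subunit in vehicle cells, those nearest to 10 CPM, all below it, and members of the structural classes; up to 4 genes past the fold limit were named per list; the other members past the limit and promoter partners were named after their values were seen. All 79 members matched RefSeq, 78 by symbol and 1 by synonym. Promoter sequences are RefSeq's, build GRCr8, and no coordinates of the counted annotation were used. Python 3.11.15, numpy 2.4.6, scipy 1.17.1 and pandas 2.3.3 were used, and the scripts were tested on simulated data.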

Additional observations from a re-analysis of the deposited data

How the results depend on the processing

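No paired analysis was possible because each condition had 1 library and no replicate. The 2 counts of members, the 2 subunit sums and their difference were recomputed under 13 planned settings and 4 chosen after the data were seen, each where it applies. The difference between the subunits kept its sign in all of them; it moved beyond its counting interval only without Mrps36, to 0.047, a setting chosen after the data were seen, which also gave -0.0022 for the small subunit. Scaling on the median gene gave 8 higher members and log2 ratios of -0.023 for the large and -0.094 for the small subunit. A total without mitochondrially encoded genes gave 0.027 and -0.044. A total also without cytosolic ribosomal and ATF4 list genes, chosen after the data were seen, gave 8 higher members (background 20.7%), -0.021 and -0.093. Equal weight per cell gave 11 higher and 6 lower members (background 25.7% and 15.6%) and 0.029 for the large subunit. Leaving out cells above the 95th percentile of UMIs also gave 11 higher and 6 lower members (background 24.5% and 16.0%). The subunit log2 ratios were then 0.024 and -0.042. Placing genes by structure gave -0.011 for the small subunit. A fold of 1.5 left 2 higher and 1 lower, and asking the whole interval to pass the limit left 6 higher and 5 lower (background 16.1% and 10.0%). For the settings of scaling, weighting and cells the cause was not tested. A stricter and no cell filter, cells with at least 10 cell cycle UMIs, other floors (10 CPM in both libraries among them) and the rule's letter case moved none of these values beyond their limits. In the thinned cells the ratio of means moved by less than its interval in 4 settings. Depth limits the vehicle library, in which 3 counts equal 0.192 CPM.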

Other observations

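Barcodes above the mitochondrial limit were left out of the comparison and held fewer member UMIs. Those with at least 1000 UMIs numbered 443 in the ZD7288 library and 82 in the vehicle library, with median mitochondrial shares of 30.5% with ZD7288 and 39.0% with vehicle. In them the measured members summed to 6036 CPM with ZD7288 and 5889 CPM with vehicle, a ratio of 1.03 (0.975 to 1.08), against 8792 CPM with ZD7288 and 8686 CPM with vehicle in the kept cells. Mitochondrially encoded UMIs are part of the total that sets CPM, and their part in the lower sum was not tested.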
